A study of Mus musculus with 16 samples.

Results

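The receptors for neuropeptide Y and for bradykinin were followed in tissue labelled periaqueductal gray from male mice. This midbrain region takes part in the descending control of pain and is a site of opioid action. The 5 genes, Npy1r, Npy2r, Npy5r, Bdkrb1 and Bdkrb2, were found by matching their symbols to the gene identifiers of the read count files, and are 5 of 38924 genes there. All 5 had enough counts to be among the 18111 genes tested. They were picked out because some of them had appeared, in these same libraries, to respond to morphine differently in the 2 genotypes, and the rest stand beside them as family members. The difference between the genotypes' morphine responses, and the single group comparisons it is made of, are therefore given as a description with no test. The morphine difference averaged over genotypes and the genotype difference averaged over treatments are contrasts orthogonal to it, and these were tested. They still rest on the same libraries and the same estimate of spread, so these tests are not independent of the choice of genes.

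Neuropeptide Y is a transmitter peptide released together with classical transmitters. Its receptors couple to inhibitory G proteins, the class of G protein that opioid receptors also use, and neuropeptide Y placed in the periaqueductal gray lowers pain responses in rats. Bradykinin is a kinin cut from circulating kininogen. Its receptors act mainly through Gq, and in peripheral tissue they sensitise pain fibres and widen vessels.

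The 16 polyA libraries fell into 4 groups of 4: RGSz1 KO mice given morphine, RGSz1 KO mice left naive, wild-type mice given morphine and wild-type mice left naive. Each library pooled tissue punches from 2 male mice. RGSz1, encoded by Rgs20, is a protein that speeds the switching off of G protein signals, and the series asks how it and tolerance to morphine shape expression in this region. The labels used here give no dose, duration, age or strain, no design of the KO allele and no vehicle group, so morphine and the handling that goes with giving it cannot be told apart. Counts over genes came to between 19077000 and 54995323 per library. Levels are given in CPM (read counts scaled to a common library total and for library composition), means ± SD with n = 4. Rgs20 averaged 12.1 ± 0.667 CPM in KO morphine and 13.1 ± 1.04 CPM in wild-type morphine libraries, and 12.6 ± 0.950 CPM in KO naive and 12.8 ± 0.824 CPM in wild-type naive libraries. The genotypes' log2 difference was -0.11 ± 0.073 under morphine and -0.02 ± 0.071 in naive libraries (edgeR adjusted p = 0.669 and 0.943). The counts of Rgs20 did not separate the genotype labels, so KO in what follows means a library labelled RGSz1 KO. All 6 general neuron markers were present, with a summed level of 3799 to 4830 CPM.

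In these libraries Npy1r was higher with morphine in both genotypes, while Npy2r and Bdkrb2 were higher with morphine in the KO libraries and at about the same level in the wild-type ones. Npy5r stood within a narrow range throughout, and Bdkrb1 was close to the lower limit of what could be counted. Averaged over the genotypes, 3 of the 5 receptors rose with morphine and 0 fell (quasi-likelihood test of edgeR, p under 0.05 after Benjamini-Hochberg adjustment over all genes), where 9.02% of all genes tested rose and 8.03% fell. The 5 had a median log2 fold change of 0.36, against -0.01 over all genes. Since the genes were picked in these libraries, and the averages of Npy2r and Bdkrb2 rest on the KO libraries, nothing is read from this share or median. Averaged over the treatments, 0 of 5 differed between the genotypes by edgeR, DESeq2 or limma-voom, where 1.53% of all genes did by edgeR, 0.685% being higher and 0.845% lower in KO libraries. At an unadjusted p under 0.05, 1 of the 5 did, Npy2r, as did 1898 of the 18111 genes.

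**Figure D1:**
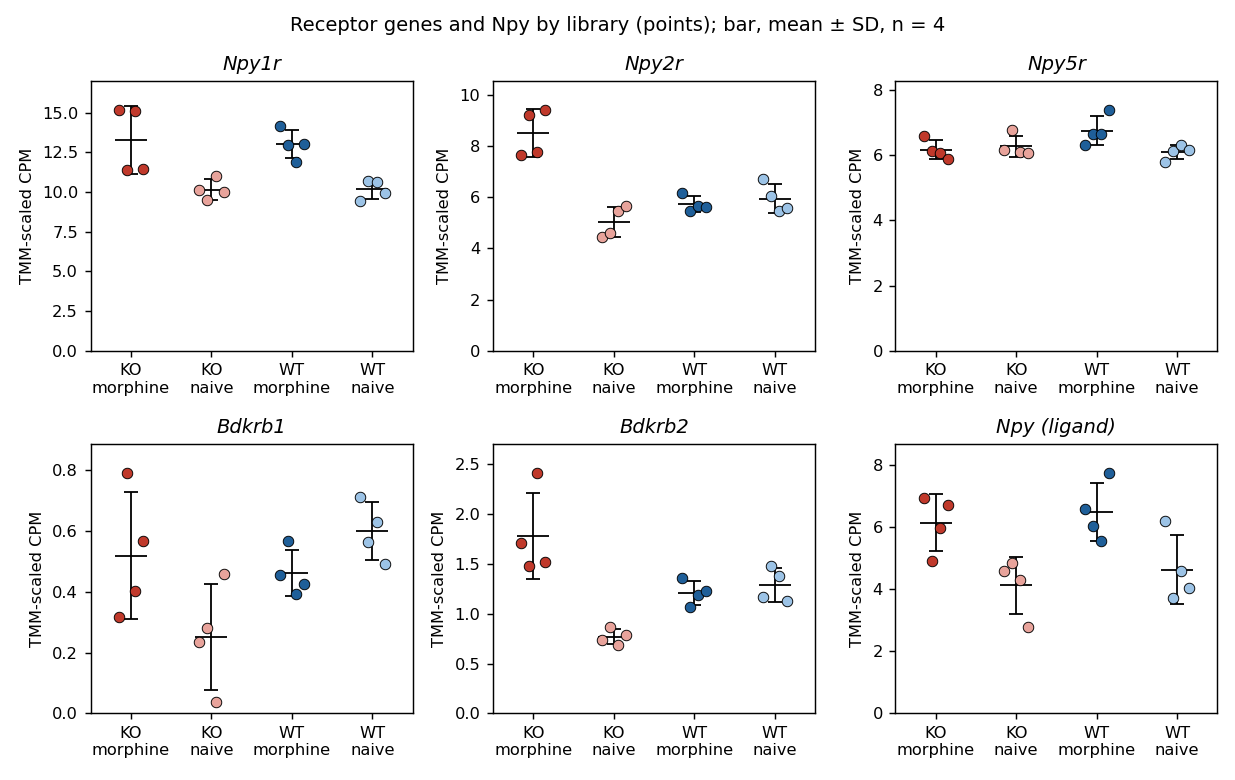
Normalised level (CPM, y axis from 0) of the 5 receptor genes and of Npy, which encodes neuropeptide Y, in each of the 16 libraries. Points are libraries, horizontal bars are group means and whiskers are SD (n = 4); the KO morphine libraries stand above the other 3 groups in Npy2r and Bdkrb2, while in Npy1r both morphine groups stand above both naive groups.

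Npy1r and Npy5r lie next to each other on chromosome 8 and are read in opposite directions, Npy1r on the plus strand at 66697192 to 66706792 and Npy5r on the minus strand at 66679965 to 66688128 (GRCm38), with 9063 bases between them. Npy2r, on chromosome 3 from 82538383 to 82548084, is read from the minus strand. Bdkrb2 (105563226 to 105595237) and Bdkrb1 (105603085 to 105605428) follow each other on the plus strand of chromosome 12, with 7847 bases between them. None of the 5 overlaps another gene in the annotation, so the lack of strand information in these libraries does not mix their reads with a partner's.

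RefSeq promoter windows (GRCm38.p6, 250 bases before to 50 after the start) were found for 4 of the 5 genes. They are shown to set the 3 genes that rose on average beside Npy5r, the neighbour of Npy1r that did not. Capitals mark matches, on either strand, to the AP-1 motif TGANTCA, bound by Fos and Jun proteins, and to the glucocorticoid receptor half-site AGAACA.
Npy1r (chr8:66697172-66697471, plus strand): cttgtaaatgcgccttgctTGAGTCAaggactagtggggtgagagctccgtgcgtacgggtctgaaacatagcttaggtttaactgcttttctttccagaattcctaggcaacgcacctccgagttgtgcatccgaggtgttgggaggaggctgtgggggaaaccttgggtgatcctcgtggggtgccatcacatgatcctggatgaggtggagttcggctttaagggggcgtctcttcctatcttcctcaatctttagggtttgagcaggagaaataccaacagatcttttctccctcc
Npy2r (chr3:82548036-82548335, minus strand): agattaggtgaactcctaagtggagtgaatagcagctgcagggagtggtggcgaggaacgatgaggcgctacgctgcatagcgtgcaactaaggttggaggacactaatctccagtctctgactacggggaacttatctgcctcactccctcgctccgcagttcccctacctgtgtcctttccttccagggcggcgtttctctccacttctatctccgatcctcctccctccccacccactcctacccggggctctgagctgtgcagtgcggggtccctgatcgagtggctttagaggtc
Npy5r (chr8:66688045-66688344, minus strand): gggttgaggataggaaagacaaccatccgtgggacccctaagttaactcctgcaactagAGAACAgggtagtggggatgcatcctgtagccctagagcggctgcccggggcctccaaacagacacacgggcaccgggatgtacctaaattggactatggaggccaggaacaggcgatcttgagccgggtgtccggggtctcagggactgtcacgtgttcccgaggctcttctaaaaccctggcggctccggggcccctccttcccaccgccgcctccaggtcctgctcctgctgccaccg
Bdkrb2 (chr12:105562922-105563221, plus strand): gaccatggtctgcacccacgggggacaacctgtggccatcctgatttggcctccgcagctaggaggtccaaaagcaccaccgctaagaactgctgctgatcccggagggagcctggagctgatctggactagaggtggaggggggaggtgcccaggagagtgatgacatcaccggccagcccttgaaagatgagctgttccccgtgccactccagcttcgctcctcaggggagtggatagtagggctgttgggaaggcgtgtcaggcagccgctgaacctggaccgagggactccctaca
The Npy1r window held 1 AP-1 match, at position -231 from the start, and 7.81% of all 32851 windows of this length held at least 1. The Npy5r window held 1 glucocorticoid half-site, at position -191, as 19.0% of all windows did. The windows of Npy2r and Bdkrb2 held neither, and none of the 4 held the cyclic AMP response element TGACGTCA (1.79% of all windows), its half-site TGACG (20.8%) or the full glucocorticoid element, which is AGAACA followed, after any 3 bases, by TGTTCT (0.00913%). Positions count from the RefSeq start. The GENCODE starts of Npy1r (66697192), Npy2r (82548084) and Npy5r (66688128) lie within these windows. For each of them part of the window is inside the annotated gene, most of it for Npy1r, and the Npy1r match lies across the GENCODE start. The Bdkrb2 window ends before its GENCODE start (105563226). These matches describe letters in a window and say nothing of binding.

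Npy1r, the main postsynaptic receptor for neuropeptide Y, had the highest level per length of the 5, at 3.38 CPM per kilobase of exon averaged over the 16 libraries. It was measured at 15.2, 11.4, 15.1 and 11.4 CPM in KO morphine libraries, against 10.1, 9.49, 11.0 and 10.0 CPM in KO naive libraries. In wild-type mice it was at 14.1, 13.0, 11.9 and 13.1 CPM in morphine libraries, against 9.43, 10.7, 10.6 and 9.96 CPM in naive libraries. In each genotype all 4 morphine libraries were above all 4 naive ones, and the KO morphine libraries were split into a higher and a lower pair. The group means were 13.3 ± 2.14 CPM in KO morphine and 10.2 ± 0.636 CPM in KO naive libraries, and 13.0 ± 0.905 CPM in wild-type morphine and 10.2 ± 0.600 CPM in wild-type naive libraries, so the 2 morphine groups overlapped each other, as did the 2 naive groups.

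Averaged over genotypes, Npy1r rose with morphine by 0.37 ± 0.065 on the log2 scale (± SE), or 1.29-fold with a 95% interval of 1.17 to 1.42 (edgeR adjusted p = 0.000942). The log2 difference was 0.39 ± 0.093 in KO and 0.35 ± 0.092 in wild-type libraries. Between genotypes the average log2 difference was 0.01 ± 0.065, with a 95% interval of -0.13 to 0.15 (edgeR adjusted p = 0.992).

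Npy2r encodes a receptor that sits largely on nerve endings, where it limits the release of neuropeptide Y itself and of other transmitters. Its level was 7.66, 9.20, 7.75 and 9.41 CPM in KO morphine libraries, against 4.44, 4.59, 5.44 and 5.64 CPM in KO naive libraries. In wild-type mice it was 6.16, 5.44, 5.64 and 5.63 CPM in morphine libraries, against 6.72, 6.04, 5.45 and 5.56 CPM in naive libraries. The KO morphine libraries stood above all 12 others, whereas the wild-type morphine and naive libraries overlapped, as did the KO naive and wild-type naive ones. By group mean KO morphine (8.50 ± 0.929 CPM) was the highest and KO naive (5.03 ± 0.599 CPM) the lowest, with wild-type morphine (5.72 ± 0.311 CPM) and wild-type naive (5.94 ± 0.580 CPM) between them, and each of the lower 3 groups overlapped its neighbour in that order.

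The morphine difference in Npy2r was 0.76 ± 0.10 on the log2 scale in KO libraries, or 1.70-fold, and -0.05 ± 0.10 in wild-type libraries. The difference between these responses, 0.81 ± 0.14, is one of the values that the genes were picked by. Over all 18111 genes, 0 passed edgeR's test of that difference (0% called, and 2200 at an unadjusted p under 0.05), while limma-voom called 0 and DESeq2's Wald test 107. Without KO morphine 3 edgeR called 56. The average over genotypes was 0.36 ± 0.071, or 1.28-fold with a 95% interval of 1.15 to 1.42 (edgeR adjusted p = 0.00233), and it was the mean of 2 unlike genotype values. The average genotype difference was 0.17 ± 0.071, with a 95% interval of 0.02 to 0.32 (edgeR adjusted p = 0.393).

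Other cell markers moved between the same KO groups. All 8 listed markers of serotonin neurons, a cell type of the neighbouring dorsal raphe, were higher in KO morphine than in KO naive libraries. Their summed level was 561 to 1738 CPM against 141 to 379 CPM, and it does not place the difference in a nucleus. All 7 oligodendrocyte markers were lower, with a summed level of 5687 to 7091 CPM in KO morphine against 8297 to 9536 CPM in KO naive libraries. In wild-type mice 0 of 8 serotonin markers were called, at 698 to 916 CPM (median 800) in morphine and 238 to 879 CPM (median 453) in naive libraries, nor was any oligodendrocyte marker. Averaged over genotypes, 7 of the 8 serotonin markers were higher and 4 of the 7 oligodendrocyte markers lower. The difference between the genotypes' responses was called for 0 markers of either list, as for 0% of all genes, so nothing is read from this. Of all genes, 5.67% rose and 5.83% fell in KO libraries, 2.34% and 2.07% in wild-type ones, and 9.02% and 8.03% on average. No marker of either list was at 0. Noradrenergic markers summed to 0.158, 39.4, 1.16 and 4.30 CPM in KO morphine libraries, so the top rests on KO morphine 2, and to 0.0877 to 0.468 CPM in KO naive libraries. Motor and cholinergic markers summed to 17.8 to 82.7 CPM in KO morphine and 8.95 to 16.9 CPM in KO naive libraries. In KO libraries 0 of 3 tested noradrenergic and 1 of 4 tested motor and cholinergic markers were called. The 2 KO morphine libraries with the highest serotonin sums, 1649 and 1738 CPM, were also the highest in Npy2r. The same 2 were the lowest of their group in Npy1r (11.4 and 11.4 CPM) and in Bdkrb2 (1.48 and 1.52 CPM). KO morphine 3 had the lowest serotonin sum of its group, 561 CPM, and 7.75 CPM of Npy2r, and the wild-type morphine libraries had serotonin sums of 698 to 916 CPM and 5.44 to 6.16 CPM of Npy2r. When the serotonin marker score entered the fit as a covariate, the KO difference in Npy2r was 0.61 ± 0.15, the wild-type difference was -0.11 ± 0.11, and the average of 0.25 ± 0.11 no longer passed (edgeR adjusted p = 0.224). With the same covariate Npy1r, at 0.58 ± 0.076, and Bdkrb2, at 0.81 ± 0.17, still passed (edgeR adjusted p = 0.000668 and 0.0123). The serotonin sums of the KO morphine and KO naive libraries did not overlap, so this fit cannot tell morphine and the score apart there. Over all genes the average morphine calls went from 3089 to 503 with the score, so kept and lost calls alike say nothing of a cause. In KO libraries 2 of 6 general neuron markers and 1 of 3 glutamatergic markers were also higher with morphine, and 2 of 6 pericyte and smooth muscle markers were lower. The part of the oligodendrocyte, noradrenergic, cholinergic, neuron, glutamatergic and pericyte markers in the result was not tested. In tissue punches, more cells of a type cannot be told apart from more RNA per cell.

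**Figure D2:**
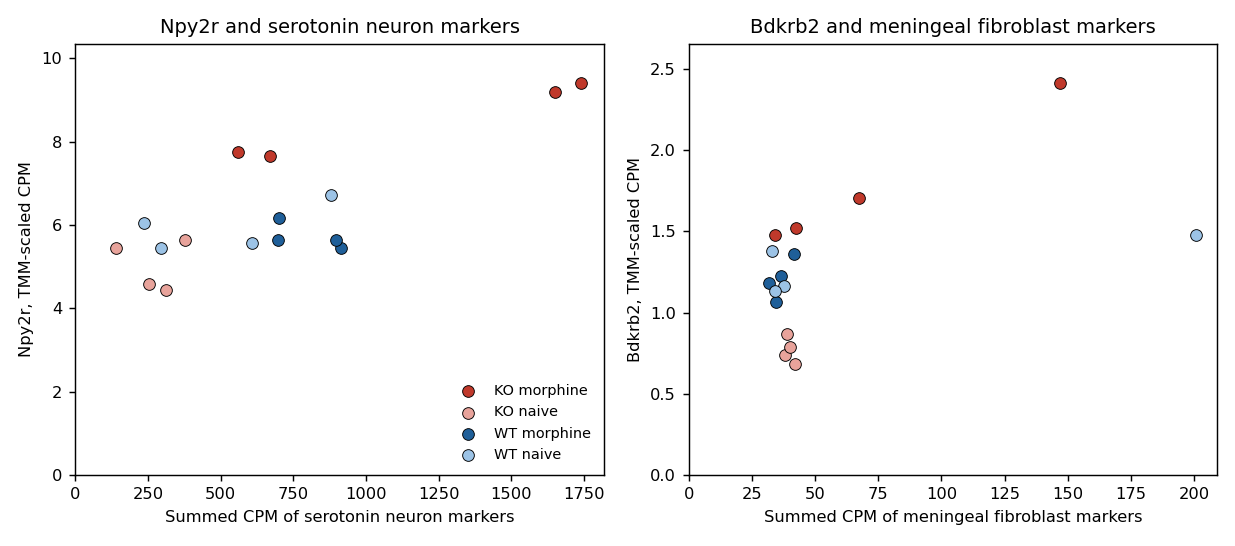
Level of Npy2r against the summed level of 8 serotonin neuron markers (left), and of Bdkrb2 against that of 7 meningeal fibroblast markers (right), both in CPM, 1 point per library, coloured by group. The KO morphine points span serotonin sums of 561 to 1738 CPM and 7.66 to 9.41 CPM of Npy2r, and the wild-type morphine points 698 to 916 CPM and 5.44 to 6.16 CPM. The 2 libraries with the highest meningeal sums, KO morphine 3 and wild-type naive 2, are the highest of their groups in Bdkrb2.

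Npy5r, best known for its part in feeding and often expressed in the same neurons as Npy1r, varied least. Its levels were 6.58, 6.13, 6.09 and 5.88 CPM in KO morphine libraries, against 6.15, 6.77, 6.09 and 6.07 CPM in KO naive libraries. In wild-type mice they were 6.33, 6.65, 6.65 and 7.39 CPM in morphine libraries, against 5.78, 6.14, 6.32 and 6.15 CPM in naive libraries. The wild-type morphine libraries were just above the wild-type naive ones and overlapped the 2 KO groups, which overlapped each other. The morphine difference was -0.02 ± 0.074 on the log2 scale in KO and 0.15 ± 0.072 in wild-type libraries. On average it was 0.06 ± 0.052, with a 95% interval of -0.05 to 0.17 (edgeR adjusted p = 0.469), and the average genotype difference was -0.05 ± 0.052, with an interval of -0.15 to 0.06 (edgeR adjusted p = 0.878). Npy1r and its neighbour thus differed in whether the average morphine difference passed the test, but the gap between the 2 genes was not itself tested.

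Bdkrb2 encodes the bradykinin receptor that is present in resting tissue. It was a low gene here, with 19 to 76 reads per library. The levels were 1.71, 1.48, 2.41 and 1.52 CPM in KO morphine libraries, against 0.740, 0.867, 0.684 and 0.790 CPM in KO naive libraries. In wild-type mice they were 1.36, 1.07, 1.18 and 1.22 CPM in morphine libraries, against 1.16, 1.48, 1.38 and 1.13 CPM in naive libraries. All 4 KO morphine libraries were above the wild-type morphine and the KO naive ones, all 4 KO naive libraries were below every other library, and the wild-type groups overlapped. By group mean KO morphine (1.78 ± 0.434 CPM) was the highest and KO naive (0.770 ± 0.0775 CPM) the lowest, with wild-type morphine (1.21 ± 0.122 CPM) and wild-type naive (1.29 ± 0.167 CPM) between them. KO morphine and wild-type naive were barely apart, the lowest KO morphine library being at 1.480 CPM and the highest wild-type naive one at 1.476 CPM.

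On the log2 scale the morphine difference in Bdkrb2 was 1.18 ± 0.17 in KO libraries, or 2.27-fold, and -0.10 ± 0.16 in wild-type libraries, with a difference of 1.29 ± 0.24 between them. Part of that gap lay in the naive groups, where KO over wild type was -0.74 ± 0.17, while under morphine it was 0.54 ± 0.17. The average morphine difference was 0.54 ± 0.12, or 1.45-fold with a 95% interval of 1.23 to 1.73 (edgeR adjusted p = 0.00438). As for Npy2r, it was the mean of unlike genotype values. The average genotype difference, in which the naive and morphine values cancel, was -0.10 ± 0.12, with an interval of -0.35 to 0.15 (edgeR adjusted p = 0.883).

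The highest Bdkrb2 library, KO morphine 3, also had a meningeal fibroblast sum of 147 CPM, where the other KO morphine libraries had 34.1 to 67.3 CPM and the KO naive ones 38.2 to 42.3 CPM. Wild-type naive 2 had the highest meningeal sum of all, 201 CPM, beside 1.48 CPM of Bdkrb2. Without these 2 libraries the KO morphine difference in Bdkrb2 was 1.02 and the difference between the genotypes' responses 1.06. The same 3 receptors passed the average morphine test. As a morphine and a naive library, the 2 enter that average with opposite signs, so the pass says nothing of a meningeal part. Of 6 endothelial markers 3 were lower with morphine in each genotype, where 5.83% of all genes were in KO and 2.07% in wild-type libraries. The 6 markers summed to 108 to 149 CPM in KO morphine and 159 to 181 CPM in KO naive libraries. Their part in the result was not tested.

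Bdkrb1, the kinin receptor known to be induced by injury and inflammation, had 1 to 32 reads per library. It was at 0.316, 0.793, 0.402 and 0.567 CPM in KO morphine libraries, against 0.235, 0.281, 0.0360 and 0.461 CPM in KO naive libraries. In wild-type mice it was at 0.454, 0.569, 0.395 and 0.426 CPM in morphine libraries, against 0.714, 0.563, 0.632 and 0.492 CPM in naive libraries. The KO naive libraries were all below the wild-type naive ones, and the other pairs of groups overlapped. The lowest value rests on a single read in KO naive 3. The morphine difference was 0.91 ± 0.38 on the log2 scale in KO and -0.39 ± 0.33 in wild-type libraries, and with the serotonin score in the fit the KO value was 0.08 ± 0.50. The average over genotypes, 0.26 ± 0.26, had a 95% interval of -0.27 to 0.80 (edgeR adjusted p = 0.537), and the average genotype difference, -0.48 ± 0.25, one of -1.02 to 0.05 (edgeR adjusted p = 0.541). The average morphine difference lay between 0.13 (without KO naive 3) and 0.47 (without KO naive 4) when single libraries were left out, and was -0.34 ± 0.35 with the serotonin score in the fit (edgeR adjusted p = 0.663). Per kilobase of exon the 2 kinin receptors were at similar averages, 0.319 CPM for Bdkrb1 and 0.333 for Bdkrb2, against 1.86 for Npy2r and 2.47 for Npy5r.

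Set side by side, 3 of the 5 receptors were higher in all KO morphine than in all KO naive libraries (Npy1r, Npy2r and Bdkrb2), where 8.27% of all genes were, and 0 were lower (8.78% of all genes). In wild-type mice 2 of the 5 were (Npy1r and Npy5r), where 5.96% of all genes were, and 0 were lower (5.09%). Of the 5, 2 were lower in all KO naive than in all wild-type naive libraries (both kinin receptors; 3.99% of all genes) and 0 were higher (4.14%). Under morphine 2 were higher in all KO morphine than in all wild-type morphine libraries (Npy2r and Bdkrb2; 2.25% of all genes), and 0 were lower (3.02%). Since the genes were picked by these groups' values, nothing is read from these shares.

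**Figure D3:**
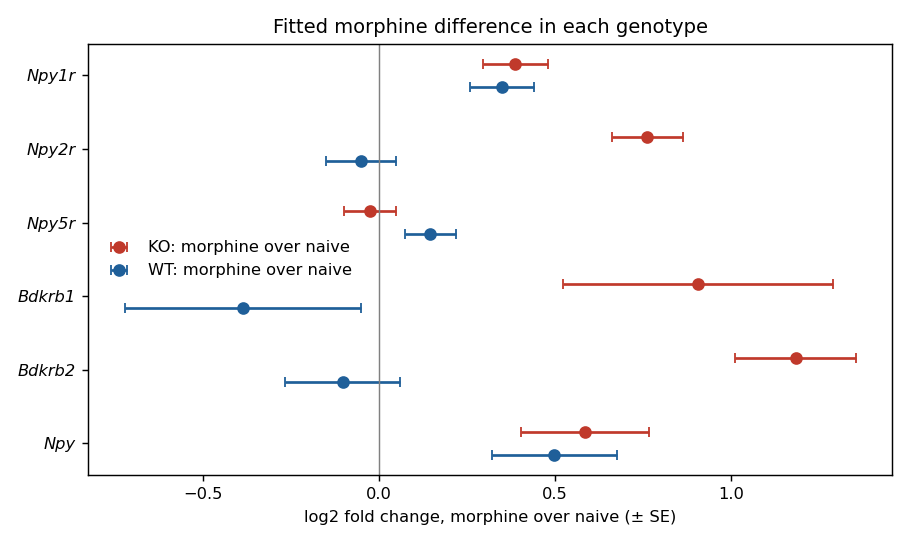
Fitted log2 fold change of morphine over naive libraries (x axis, points, whiskers ± SE) for the 5 receptor genes and Npy, in KO (red, upper) and wild-type (blue, lower) libraries. The 2 genotypes lie side by side for Npy1r (0.39 and 0.35) and Npy (0.59 and 0.50) and apart for Npy2r (0.76 and -0.05) and Bdkrb2 (1.18 and -0.10).

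Of the ligands, Npy was present at 9.45 CPM per kilobase of exon, more than any of its receptors. It was at 6.96, 4.92, 5.98 and 6.73 CPM in KO morphine libraries, against 4.60, 4.85, 4.29 and 2.79 CPM in KO naive libraries. In wild-type mice it was at 6.59, 6.05, 5.56 and 7.76 CPM in morphine libraries, against 6.20, 3.71, 4.58 and 4.06 CPM in naive libraries. The KO groups did not overlap, and in wild-type mice 1 naive library lay within the morphine range. On average Npy rose with morphine by 0.54 ± 0.13 on the log2 scale, or 1.46-fold (edgeR adjusted p = 0.00742). The difference was 0.59 ± 0.18 in KO (adjusted p = 0.0453) and 0.50 ± 0.18 in wild-type libraries (adjusted p = 0.126), and the difference between them was 0.09 ± 0.25 (edgeR adjusted p = 0.924). The KO value lost its call when any 1 of 10 of the 16 libraries was left out (edgeR adjusted p up to 0.12). Once the serotonin score was a covariate, the average was 0.47 ± 0.20 and did not pass (edgeR adjusted p = 0.23).

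Of 10 other genes of the neuropeptide Y system, 5 had enough counts to be tested, and with morphine on average 1 rose, Npy, and 0 fell, where 9.02% of all genes rose and 8.03% fell. Their median log2 fold change was 0.02, against -0.01 over all genes. In KO libraries Npy was again the 1 call, where 5.67% of all genes rose. In wild-type libraries, between genotypes and in the difference between responses, 0 of the 5 were called by edgeR, DESeq2 or limma-voom. There edgeR called 4.41%, 1.53% and 0% of all genes. At an unadjusted edgeR p under 0.05 there were 1, 0 and 0 of the 5, and 3637, 1898 and 2200 of all 18111 genes. With 5 genes, nothing is read from these counts. The related ligand genes Pyy and Ppy and the receptor gene Npy6r each had 1 read in total over the 16 libraries, and the receptor gene Npy4r had at most 12 reads in a library. Dpp4, whose enzyme trims neuropeptide Y to a form that Npy1r binds poorly, was at -0.29 ± 0.31 on average (edgeR adjusted p = 0.584).

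In the kinin system the precursor genes were nearly absent: Kng1 had at most 3 reads in a library and Kng2 at most 1. Of 17 genes of kinin formation and breakdown, 16 were matched and 11 tested. With morphine on average 0 of the 11 passed edgeR's test, where 17.1% of all genes did, and 0 passed by DESeq2 and by limma-voom. At an unadjusted edgeR p under 0.05 there was 1 of the 11, as were 5482 of all 18111 genes. Their median log2 fold change was 0.02 against -0.01 over all genes. Without wild-type naive 2 and KO morphine 3, Ace rose by 0.16 ± 0.029 on average (edgeR adjusted p = 0.00103). In KO libraries 1 rose and 1 fell, where 5.67% of all genes rose and 5.83% fell (11.5% in all). Ace, which encodes the enzyme that breaks bradykinin down, was at 45.7 ± 2.45 CPM in KO morphine and 38.3 ± 1.04 CPM in KO naive libraries (log2 fold change 0.26 ± 0.070, edgeR adjusted p = 0.0255). Cpm, which encodes the carboxypeptidase that turns bradykinin into a ligand of Bdkrb1, was at 21.9 ± 4.29 CPM in KO morphine and 28.9 ± 2.37 CPM in KO naive libraries (-0.41 ± 0.12, edgeR adjusted p = 0.0464). Leaving out any 1 of 4 of the 16 libraries ended the call of Ace (edgeR adjusted p up to 0.0745), and any 1 of 11 that of Cpm (up to 0.129). In wild-type libraries 0 of the 11 were called by edgeR, DESeq2 or limma-voom, where 2.34% of all genes rose and 2.07% fell (4.41% in all). Unadjusted, 1 of the 11 had an edgeR p under 0.05, as had 3637 of all 18111 genes. The difference between the genotypes' responses was called for 0 of the 11 by edgeR and by limma-voom, where edgeR called 0% of all genes. Unadjusted, 4 of the 11 had an edgeR p under 0.05, as had 2200 of all 18111 genes. DESeq2's Wald test called Cpm alone of the 11 (-0.66 ± 0.17, adjusted p = 0.0249), and 107 of all genes. Between genotypes 1 of the 11 differed on average, where 1.53% of all genes did (0.685% being higher in KO libraries). It was Prcp, a carboxypeptidase of the kinin and angiotensin systems, at 14.5 ± 1.26 CPM in KO morphine against 11.5 ± 0.399 CPM in wild-type morphine libraries, and 13.2 ± 0.758 CPM in KO naive against 12.1 ± 0.703 CPM in wild-type naive libraries (0.23 ± 0.047, edgeR adjusted p = 0.0121).

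The 5 genes were also set beside 57 other receptor genes for peptides, of which 56 were matched and 52 tested. With morphine on average 10 rose and 3 fell, where 9.02% of all genes rose and 8.03% fell, with a median log2 fold change of 0.11 against -0.01 over all genes. The largest of the 10 rises were in Agtr1a, an angiotensin receptor (1.17 ± 0.26 on the log2 scale), Crhr2, a receptor for urocortins (1.11 ± 0.26), and Calcr, the calcitonin receptor (1.04 ± 0.16). Calcr was at 20.7 ± 5.81 CPM in KO morphine and 7.72 ± 1.13 CPM in KO naive libraries, and at 18.5 ± 0.990 CPM in wild-type morphine and 11.9 ± 4.38 CPM in wild-type naive libraries. Crhr2 was at 2.04 ± 1.17 CPM in KO morphine and 0.566 ± 0.116 CPM in KO naive libraries, and at 1.20 ± 0.333 CPM in wild-type morphine and 0.953 ± 0.318 CPM in wild-type naive libraries. Vipr2 (0.64 ± 0.14), the thyrotropin-releasing hormone receptor Trhr (0.46 ± 0.085) and the oxytocin receptor Oxtr (0.46 ± 0.089) rose as well, while Trhr2 fell by 0.43 (± 0.090). The log2 differences of Calcr were 1.41 ± 0.24 in KO and 0.66 ± 0.23 in wild-type libraries, and those of Crhr2 were 1.83 ± 0.37 in KO and 0.39 ± 0.36 in wild-type libraries. For neither did edgeR's test call a difference between the genotypes' responses (adjusted p = 0.389 for Calcr and 0.299 for Crhr2), nor for any of the 52. Unadjusted, 11 of the 52 had an edgeR p under 0.05, as had 2200 of all 18111 genes. DESeq2 and limma-voom called 0 of the 52 as well. Over all genes edgeR called 0 and DESeq2's Wald test 107, so nothing is read from the 0 calls. In KO libraries 8 of the 52 rose and 1 fell, where 5.67% of all genes rose and 5.83% fell, and these 9 calls became 4 without KO morphine 4. In wild-type libraries 2 rose and 0 fell, where 2.34% of all genes rose and 2.07% fell. There 0 to 5 were called when single libraries were left out, 5 by DESeq2 and 6 by limma-voom. With the serotonin score as a covariate 1 of the 52, Calcr, was called on average (0.42 ± 0.097, edgeR adjusted p = 0.0247). Averaged over treatments 1 of the 52 differed between genotypes, where 1.53% of all genes did, the neurotensin receptor gene Ntsr2, which was lower in KO libraries, at -0.34 ± 0.058 (edgeR adjusted p = 0.00488).

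**Figure D4:**
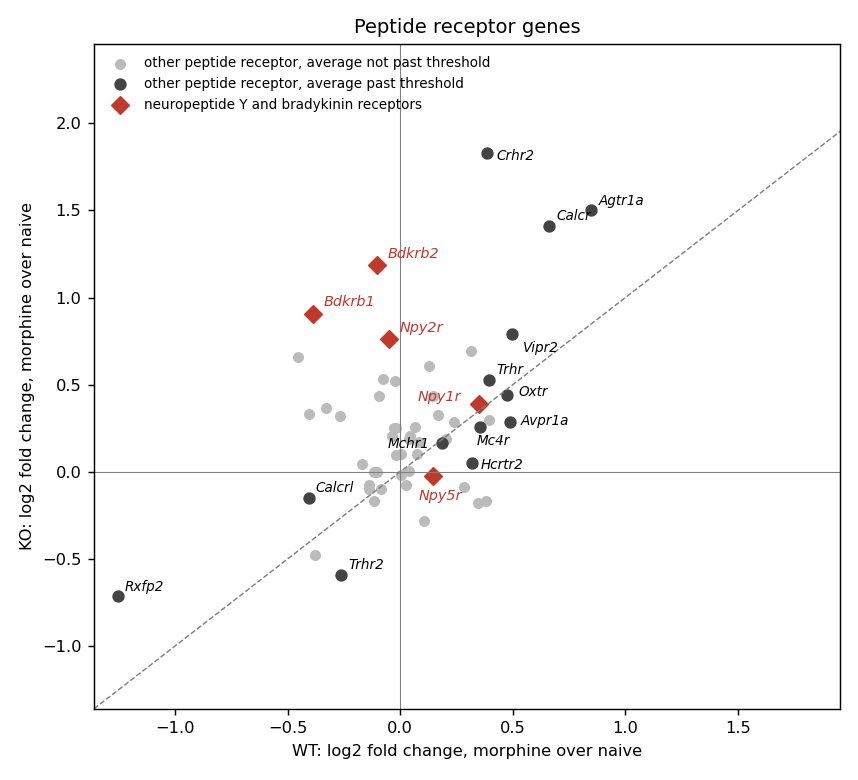
Log2 fold change of morphine over naive in KO (y axis) against wild-type libraries (x axis) for 52 other peptide receptor genes (grey, and black where the average over genotypes passed edgeR's test) and the 5 neuropeptide Y and bradykinin receptors (red diamonds). On the dashed line both genotypes are equal; Npy1r lies close to it, Bdkrb2, Bdkrb1 and Npy2r lie above it near or left of 0 on the x axis, and Calcr, Crhr2 and Agtr1a lie above it with positive values on both axes.

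The genes whose log2 level followed each receptor most closely over the 16 libraries were ranked among 13611 expressed genes by Pearson's r, as a description of libraries that share a tissue, a kit and differences in depth. For Npy1r they were Zc3h14 (0.92), Cmtm3 (0.91) and Bdnf (0.88), which encodes brain-derived neurotrophic factor. Taken as deviations from the group means, Bdnf had a coefficient of 0.86 with Npy1r. For Npy2r they were L3hypdh (0.88), Vwa5a (0.88) and Ass1 (0.87), with within-group coefficients of 0.62, 0.75 and 0.42. For Bdkrb2 they were Pola1 (0.87), Dennd3 (0.85) and Marc2 (0.85), with within-group coefficients of 0.73, 0.18 and 0.56. For Npy5r they were Lipe (0.84), Add1 (0.81) and Rbmxl1 (0.80). For Bdkrb1 they were Pdcd5 (0.90) and the midbrain and hindbrain patterning genes En2 (0.87) and En1 (0.82), on the 1 to 32 reads per library noted above. Between Npy2r and Bdkrb2 the coefficient was 0.72 over the libraries and -0.34 within groups. Other receptor pairs lay further from 0 within groups. Npy1r and Bdkrb2 were at 0.63 over the libraries and 0.57 within groups, Npy2r and Npy5r at -0.37 and -0.61. Npy1r and Bdkrb1 were at -0.01 and -0.54.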

How the data were processed

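Read counts per gene were deposited as whole numbers, 1 file per library. Per the submitters' processing notes they come from HTSeq on mm10, and limma is also named; for the aligner, the gene annotation and the strand option: not given in the sources used here. Per the labels' protocols, TRIzol RNA went into TruSeq RNA v2 libraries, a kit that keeps no strand. HTSeq's tallies of reads outside genes, 38.2 to 40.6% of each file, stayed out. GENCODE M21 (GRCm38, the assembly of mm10) gave symbols, exon lengths and positions for 37607 of 38924 identifiers; Klkb1, Galr3 and Slc18a3 of the lists were not analysed here.

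Groups came from the sample titles. After filterByExpr (minimum count of 10) and TMM scaling, edgeR 4.0.16 (R 4.3.3, robust quasi-likelihood test, 1 coefficient per group, 16 libraries) gave p-values, adjusted by Benjamini-Hochberg over 18111 genes, with a threshold of 0.05. They measure spread between libraries that the labels call biological replicates, and all replicate pairs differed beyond sampling noise. Likeness used log2 CPM with a prior count of 2. Alternatives were DESeq2 1.42.0, limma-voom 3.58.1, other filters, a replicate block, only the groups compared and leaving libraries out; 2 marker scores as covariates were added after seeing the data.

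The receptors, the gene and marker lists and the alternatives were chosen with earlier results of these data known. Named genes were the receptors, Npy, Kng1, Kng2, Rgs20, up to 6 called genes per list and comparison by smallest p, and the 3 genes most like each receptor; Pyy, Ppy, Npy4r, Npy6r and Dpp4 were named after their values were seen.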

Additional observations from a re-analysis of the deposited data

Results flagged for a closer look

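Npy5r stood at 6.77 CPM in KO naive 2, where the nearest of the other 3 KO naive libraries was at 6.15 CPM, a gap of 0.889 of the group's range. This was the only outlying library among 24 groups of 4 screened (the 5 receptors and Npy in each group), a rule that chance meets in about 1 group in 20.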

How the results depend on the processing

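The calls of Npy1r, Npy2r and Bdkrb2 in the average morphine comparison held, in the same direction, under DESeq2's size factors, no filter, a filter of 1 CPM in 8 libraries, DESeq2's Wald test, limma-voom, the replicate block, without wild-type naive 2 and KO morphine 3 together, with the meningeal score as a covariate and without any single library. These settings rest on the same libraries, in which the genes were picked, and the averages of Npy2r and Bdkrb2 rest on the KO ones. The kept calls are therefore no independent support. With the serotonin score as a covariate Npy1r and Bdkrb2 kept their calls and Npy2r did not, at 0.25. In KO libraries that score and morphine cannot be told apart. Bdkrb1 gave no value under the filter of 1 CPM in 8 libraries. The difference between the genotypes' responses moved by more than the spread between replicates for Bdkrb2 without those 2 libraries (1.06) and with the meningeal score (1.04), and for Npy1r with the serotonin score (0.20). The number of genes called moved more. For the difference between the genotypes' responses, 0 genes in the fit reported became 1 with no filter, 107 with DESeq2's Wald test, 64 without the 2 libraries, 1 with the meningeal score and 0 to 56 without single libraries, the counts above 0 being 56 on leaving out KO morphine 3, 16 for replicate 3 of wild-type morphine, and 1 for its replicate 4 and for wild-type naive 3. Morphine in wild-type libraries, 798 genes, gave 1242 with DESeq2's Wald test, 512 with the replicate block, 410 with only those 2 groups, 337 with the serotonin score and 378 to 1252 without single libraries. Morphine in KO libraries, 2082 genes, gave 433 with the serotonin score and 1037 to 2341 without single libraries. The average morphine comparison, 3089 genes, gave 503 with the serotonin score, and the average genotype comparison, 277 genes, gave 434 with DESeq2's Wald test. Among the 52 other peptide receptor genes, the 2 calls in wild-type libraries became 0 with the replicate block, with only those 2 groups, without the 2 libraries and with either score, and the 9 calls in KO libraries became 1 with the serotonin score. Same-numbered libraries of different groups did not deviate together (24 pairs, Pearson's r from -0.28 to 0.13), so the numbers do not pair them; with the replicate block Npy in KO libraries had an edgeR adjusted p of 0.0561. The cause of these moves was not tested. Bdkrb1 rested on 1 to 32 reads per library, and counting noise was not separated from other spread.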
